A study of Homo sapiens with 2 samples.

Results

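The constitutive proteasome genes were taken as the protein-coding genes whose symbol is PSMA, PSMB, PSMC, PSMD, PSME, PSMF or PSMG followed by a number, without the 3 immunosubunit genes PSMB8, PSMB9 and PSMB10. This rule, which used names and no measured value, gave 45 of the 60623 gene entries in the count tables. They fell into 16 core genes (PSMA and PSMB), 20 regulatory genes (PSMC and PSMD), 5 activator genes (PSME and PSMF) and 4 assembly genes (PSMG), spread over 17 chromosomes. RNA was sequenced from wild-type HepG2 cells, an established line from a human liver carcinoma. Both groups received 1 mM free fatty acids (FFA), a mixture of oleic and palmitic acid bound to albumin that loads the cells with lipid, for 24 h. The FFA + 9-cis-RA group was also given 9-cis-RA at 10 μM for 24 h, a form of retinoic acid and a ligand of the nuclear receptors RXR and RAR. The paper describes 9-cis-RA both as a step after FFA and as co-treatment. Each group was 1 library of 1 cell line, both from the batch named Batch 1, so culture and treatment cannot be told apart, and p-values or errors between replicates cannot be had. The question for these genes was whether the proteasome differed as a whole, by complex or by single gene between FFA-loaded cells with and without 9-cis-RA.

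The proteasome degrades proteins that carry ubiquitin chains. Its core is a barrel of stacked rings: the outer rings are built from PSMA (alpha) subunits, and the inner rings from PSMB (beta) subunits, of which PSMB5, PSMB6 and PSMB7 carry the proteolytic sites. The regulatory particle caps the barrel. Its base holds the ring of PSMC ATPases that unfold the substrate, and its lid holds PSMD14, the enzyme that removes the ubiquitin chain. PSME activators are alternative caps, PSMF1 is an inhibitor of the core, and PSMG proteins are chaperones that assemble the core. In many cells the subunit genes are transcribed together under the factor NFE2L1 (also called NRF1), and interferon exchanges the catalytic subunits for the immunosubunits PSMB8, PSMB9 and PSMB10.

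Promoter sequence is shown first for PSMD8 and PSMD14, the lid genes that differed most between the libraries, for PSMC6, the ATPase gene that went the other way, and for PSME1 and PSME2, neighboring activator genes that were both lower. Each line gives the 250 bases before the RefSeq start on GRCh38.p14, read 5′ to 3′ on the strand of the gene. The intervals are chr19:38374321-38374570 (PSMD8, plus strand), chr2:161308175-161308424 (PSMD14, plus strand), chr14:52706950-52707199 (PSMC6, plus strand), chr14:24135944-24136193 (PSME1, plus strand) and chr14:24146611-24146860 (PSME2, minus strand). Capitals mark CCAAT, TGACNNNGC and a pair of GAAA repeats set 2 bases apart, on either strand, so CCAAT on the opposite strand appears as ATTGG.
PSMD8: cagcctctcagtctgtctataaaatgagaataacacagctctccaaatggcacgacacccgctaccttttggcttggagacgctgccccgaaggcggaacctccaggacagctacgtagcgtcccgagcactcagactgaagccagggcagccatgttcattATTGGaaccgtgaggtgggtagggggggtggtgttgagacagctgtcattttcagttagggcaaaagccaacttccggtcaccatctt
PSMD14: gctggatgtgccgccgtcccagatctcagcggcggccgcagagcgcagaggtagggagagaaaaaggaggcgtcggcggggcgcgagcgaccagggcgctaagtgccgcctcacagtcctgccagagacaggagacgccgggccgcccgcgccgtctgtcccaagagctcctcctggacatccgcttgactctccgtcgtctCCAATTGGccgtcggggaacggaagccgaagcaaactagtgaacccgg
PSMC6: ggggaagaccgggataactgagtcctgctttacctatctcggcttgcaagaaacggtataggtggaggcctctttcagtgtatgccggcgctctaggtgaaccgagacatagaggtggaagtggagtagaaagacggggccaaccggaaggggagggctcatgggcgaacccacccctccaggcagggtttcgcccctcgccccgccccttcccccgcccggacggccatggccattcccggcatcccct
PSME1: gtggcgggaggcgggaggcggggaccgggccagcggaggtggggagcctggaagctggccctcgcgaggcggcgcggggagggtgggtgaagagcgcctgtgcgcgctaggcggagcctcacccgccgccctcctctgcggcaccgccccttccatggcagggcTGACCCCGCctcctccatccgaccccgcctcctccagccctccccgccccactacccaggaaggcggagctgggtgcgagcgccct
PSME2: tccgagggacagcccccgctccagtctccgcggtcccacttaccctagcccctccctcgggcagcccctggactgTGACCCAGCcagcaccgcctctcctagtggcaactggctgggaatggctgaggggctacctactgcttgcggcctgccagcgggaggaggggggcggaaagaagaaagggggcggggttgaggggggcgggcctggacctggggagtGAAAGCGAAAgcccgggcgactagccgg
PSMD8 held CCAAT, the box bound by NF-Y, once on the opposite strand, and PSMD14 held it on both strands in matches that overlap each other. TGACNNNGC, the core of the element that NFE2-related factors bind with a small MAF partner, was found in PSME1 and PSME2. The spaced GAAA pair, the core of the element bound by interferon regulatory factors, was found in the printed bases of PSME2 and, in PSME1, just after the start, outside the printed bases. PSMC6 held none of these letters in this window. The GENCODE gene begins slightly inside the printed bases for PSMD8, PSMC6 and PSME1, and upstream of them for PSME2. A match describes the sequence and is not evidence of binding.

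A RefSeq promoter of 300 bases (250 before and 50 after the start) was matched by symbol for 39 of the 45 genes. The 6 genes with no entry were PSMA7, PSMB1, PSMB6, PSMB7, PSMD4 and PSMG3. TGACNNNGC was present in 14 of the 39 (35.9%), against 16.1% of all 27305 symbols with a promoter. CCAAT was present in 19 (48.7%, against 39.7% of all symbols). The spaced GAAA pair was present in 5 (12.8%, against 4.38%), namely PSMA4, PSMB4, PSME1, PSME2 and PSMG4. AGGTCA, the hexamer recognized by nuclear receptors such as RXR, was present in 6 (15.4%, against 16.5%), and its carriers were PSMA6, PSMB2, PSMD1, PSMD2, PSMD7 and PSMG4. All motifs were searched on both strands.

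The libraries held 60821539 counts (FFA) and 57669670 counts (FFA + 9-cis-RA). CYP26A1, a retinoic acid hydroxylase, had 4 counts with FFA alone and 709 in the library labelled FFA + 9-cis-RA. All 7 hepatocyte markers were detected, and their summed level, in counts scaled to the library total (CPM), was 14631 with FFA and 11769.7 with FFA + 9-cis-RA. Fibroblast markers summed to 0.691 and 0.434 CPM, endothelial markers to 4.14 and 2.72, and blood markers to 0.0986 and 0.277, with PTPRC and HBB at 0. The hepatocyte markers went both ways, with ALB at 3068 and 1957 CPM and AFP at 4493 and 2339, but SERPINA1 at 4844 and 5139, APOA1 at 1796 and 1909 and FGB at 26.4 and 48.9. Whether these bear on the proteasome values was not tested. In bulk RNA, fewer cells and less RNA per cell cannot be told apart.

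Of the 45 genes, 43 had at least 10 counts over both libraries and were compared. The other two were PSMA8, a testis form of PSMA7 with 0 and 2 counts, and PSMB11, the thymus form of the beta ring with 2 and 0 counts. For both libraries, 3 counts were taken as the limit that a count of 0 allows, so neither gene was separable from 0 at this depth. Differences are log2 fold changes of normalized counts (counts divided by the DESeq2 size factor, plus 1), FFA + 9-cis-RA against FFA, each with an exact 95% interval. Such intervals measure counting error alone, between a pair of libraries rather than between conditions. Wherever a pair of normalized counts is given, the FFA library stands first.

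Most proteasome genes had nearly the same level in both libraries. The median log2 fold change of the 43 genes was 0.019, with quartiles of -0.079 and 0.078, beside -0.020 for all 20431 genes compared, whose quartiles were -0.26 and 0.18. The values ran from -0.23 for PSME2 to 0.40 for PSMA2. No gene passed 1 in either direction, where 3.37% of all genes compared were above 1 and 4.9% were below -1. Genes with more counts spread less, so the 11171 protein-coding genes with counts in the same range as these genes are the closer background. Of those, 0.376% were above 1 and 1.2% were below -1, so an absence of such genes among 43 is close to the background.

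The counting interval lay above 0 for 17 genes, below 0 for 14 and included 0 for 12. This split depends on the scaling, since it was 20 above and 10 below with TMM factors and 22 above and 7 below with total counts. Thus 39.5% lay above 0, against 33.5% of protein-coding genes of like counts and 22.5% of all genes. A further 32.6% lay below 0, against 32.7% of protein-coding genes of like counts and 25.7% of all genes. These shares are near the background and set the group as a whole apart in neither direction. The values were close to 0 more often than in the background: 41 of 43 (95.3%) lay within 0.25 of 0, against 71.4% of protein-coding genes of like counts and 55.1% of all genes. PSMA2 and PSMD8 were the exceptions. In the middle of the count range, a mean normalized count from 4408 to 9541, 20 of 21 proteasome genes lay within 0.25 of 0, against 79.8% of 1976 protein-coding genes. The limit of 0.25 and the middle range were chosen after the values were seen. The plot of log2 fold changes by role shows this narrow spread.

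**Figure D1:**
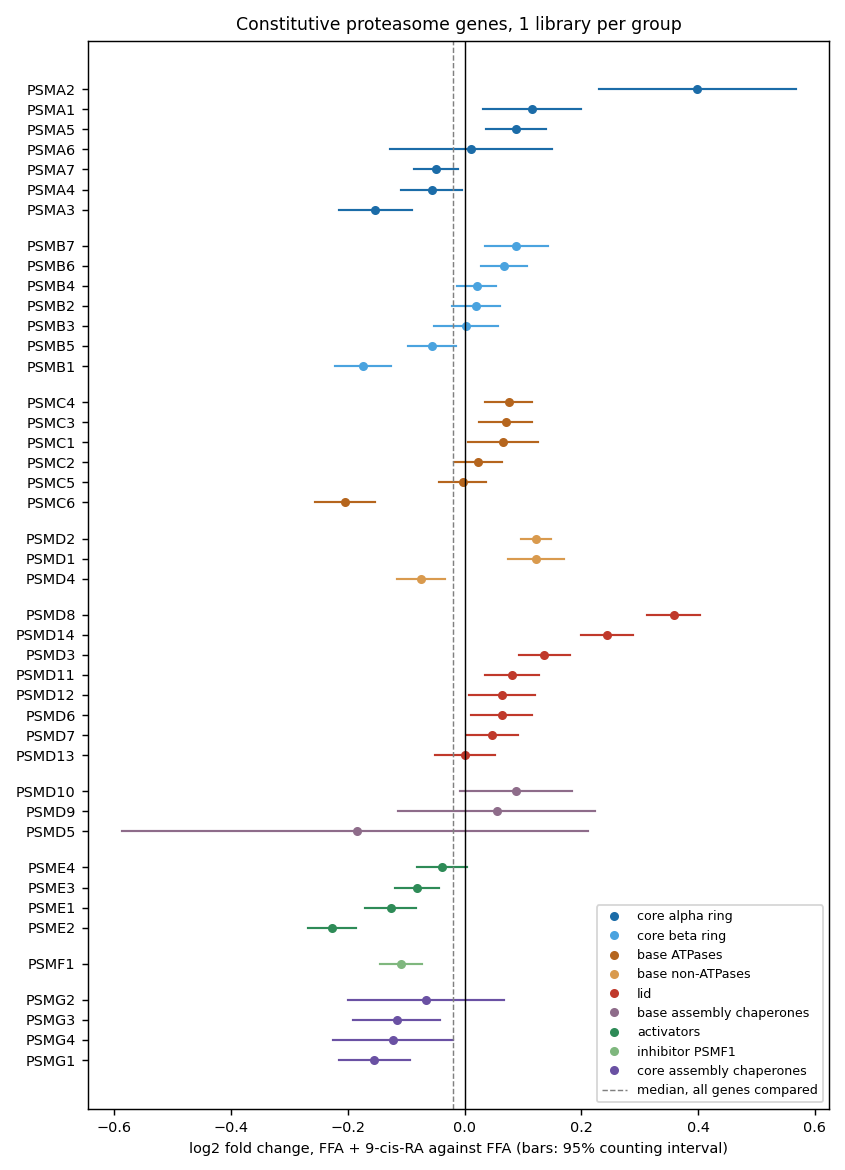
Log2 fold change of normalized counts, FFA + 9-cis-RA against FFA, for the 43 compared genes by role, with points for genes, bars for the 95% counting interval (1 library per group) and a dashed line at the median of all genes compared. The 8 PSMD lid genes lie at or to the right of 0, the activators, PSMF1 and the core assembly chaperones lie to the left, and the other roles lie on both sides.

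By group, the medians were 0.015 for core, 0.065 for regulatory, -0.11 for activator and -0.12 for assembly genes. Core genes were split, 9 higher and 5 lower in the FFA + 9-cis-RA library, with 5 intervals above 0 and 5 below. Regulatory genes were mostly higher, 16 against 4 (80%, beside 51.6% of protein-coding genes of like counts), with 12 intervals above 0 (60%, beside 33.5%) and 2 below. All 5 activator genes were lower, 4 of them with an interval below 0, and all 4 assembly genes were lower, 3 of them with an interval below 0. For comparison, 32.7% of protein-coding genes of like counts had an interval below 0. Of the 4 assembly genes, 2 kept such an interval with TMM scaling or the length trend removed and 1 with total-count scaling or the GC trend removed, and their median was -0.046 with the length trend removed. Of these activator and assembly genes, PSME4 changed direction with total-count scaling and PSMG2 with the length trend removed.

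Summed counts gave differences between the groups of the same order. The log2 fold change of the regulatory sum was 0.085 above that of the core sum (95% interval 0.068 to 0.10), by a normal approximation on the log scale. The activator sum stood -0.11 from the core sum (95% interval -0.13 to -0.086) and the assembly sum -0.12 (95% interval -0.17 to -0.080). Activator and assembly sums were not separable, at -0.014 (95% interval -0.059 to 0.030). These differences are free of the scaling between libraries but not of gene length. With the length trend removed, the medians were 0.065 for core and 0.064 for regulatory genes, so regulatory genes no longer stood above core genes. The sums were not computed with that trend removed. The spread between replicate cultures, against which such differences would have to be read, is unknown.

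The alpha subunits had a median log2 fold change of 0.011 over 7 genes, 4 higher and 3 lower. PSMA2 (ENSG00000106588, chr7:42916861-42932185, minus strand) had 510 and 672 normalized counts and was higher with 9-cis-RA. Its log2 fold change of 0.40 (95% interval 0.23 to 0.57) was the highest of all 43 genes and stood at percentile 88.3 of all genes compared. Its count is a partial one, because another protein-coding gene, ENSG00000256646, shares 781 bases of its exons, a stretch equal to 72.0% of its median coding transcript, and reads there were not counted. PSMA1 had 2222 and 2406 normalized counts (0.11, 95% interval 0.031 to 0.20), and PSMA5 had 5782 and 6147 (0.088, 95% interval 0.036 to 0.14), both higher in the FFA + 9-cis-RA library. PSMA3 was the lowest of the ring with 4398 and 3956 (-0.15, 95% interval -0.22 to -0.091). PSMA4 (-0.056) and PSMA7 (-0.050) were slightly lower, with intervals that included 0 under TMM or total-count scaling and with the expression or GC trend removed. With the length trend removed PSMA7 turned to 0.049 and with the GC trend removed to 0.00093. PSMA6 had 855 and 861 normalized counts, a difference within counting error (0.011, 95% interval -0.13 to 0.15) that changed sign with the length or the GC trend removed.

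The beta subunits had a median of 0.019 over 7 genes, 5 higher and 2 lower. Of the catalytic subunits, PSMB6 (the caspase-like site) had 9985 and 10462 normalized counts (0.067, 95% interval 0.028 to 0.11). PSMB7, the trypsin-like site, had 5383 and 5725 (0.089, 95% interval 0.035 to 0.14). PSMB5, the chymotrypsin-like site, had 9874 and 9495 (-0.056, 95% interval -0.10 to -0.016). The catalytic subunits thus did not share a direction. The interval of PSMB5 included 0 under TMM or total-count scaling and with the expression or GC trend removed, and its value turned to 0.049 with the length trend removed. Among the structural subunits PSMB1 was lower, with 7572 and 6710 normalized counts (-0.17, 95% interval -0.22 to -0.13). PSMB2, PSMB3 and PSMB4 had log2 fold changes of 0.019, 0.0020 and 0.021, with intervals that included 0, and PSMB3 changed sign when protein-coding genes alone were used. The alpha and beta sums differed by 0.014 (95% interval -0.014 to 0.042), so the rings were not separable.

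Most lid genes of the regulatory particle were higher. All 8 lid genes of the PSMD family had a log2 fold change above 0, with a median of 0.073. The interval lay above 0 for 7 of them, all but PSMD13. Of protein-coding genes of like counts, 51.6% were higher and 33.5% had an interval above 0. Only PSMD8 and PSMD14 lay above the upper quartile of those background genes (0.144). SEM1, a small lid subunit whose name lies outside the rule, had 4262 and 3969 normalized counts and was lower (-0.10, 95% interval -0.17 to -0.040), so the direction did not hold for the whole lid. PSMD13 was level, at 6113 and 6118 normalized counts (0.0012), and was lower when only protein-coding genes were used for scaling. The lid sum, without SEM1, stood 0.12 above the ATPase sum (95% interval 0.099 to 0.15). The medians, 0.073 for the lid and 0.044 for the ATPases, lay closer together. PSMD8 and PSMD14 were the highest of the lid and PSMC6 the lowest ATPase gene, and the gap without them was not computed. PSMD8 (ENSG00000099341, chr19:38374536-38383824, plus strand), a structural subunit of the lid, had 7160 and 9176 normalized counts. Its log2 fold change of 0.36 (95% interval 0.31 to 0.40), a fold of 1.28, stood at percentile 86.9 of all genes. PSMD14 (ENSG00000115233, chr2:161308425-161411717, plus strand), the deubiquitinase, had 7545 and 8937 normalized counts. Its log2 fold change of 0.24 (95% interval 0.20 to 0.29) stood at percentile 80.3. PSMD3 was the next of the lid, with 7955 and 8745 (0.14, 95% interval 0.093 to 0.18). PSMD11, PSMD12, PSMD6 and PSMD7 were higher by smaller amounts, from 0.048 for PSMD7 to 0.081 for PSMD11. Of these, PSMD6 and PSMD12 had intervals that included 0 with the GC trend removed, PSMD6 also with the length trend removed, and PSMD7 with protein-coding genes alone.

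Of the base, PSMD1 and PSMD2, the scaffold subunits that receive ubiquitin-binding shuttle proteins, were both higher. PSMD2 (ENSG00000175166, chr3:184299198-184309050, plus strand) had the most counts of all 45 genes, with 23616 and 25707 normalized counts (0.12, 95% interval 0.10 to 0.15). PSMD1 had 6954 and 7569 (0.12, 95% interval 0.075 to 0.17). PSMD4, a ubiquitin receptor grouped here with the base, was lower, with 9895 and 9394 (-0.075, 95% interval -0.12 to -0.034). That interval included 0 with total-count scaling (-0.026), the length trend removed (-0.018) or the GC trend removed (-0.026).

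The ATPase ring had a median of 0.044 over 6 genes. PSMC1, PSMC3 and PSMC4 were higher, at 0.065, 0.070 and 0.075, each with an interval above 0, which PSMC1 lost with the length trend removed or protein-coding genes alone. PSMC2 (0.022) and PSMC5 (-0.0034) had intervals that included 0, and PSMC5 was above 0 with TMM or total-count scaling and with any of the trends removed. PSMC6 (ENSG00000100519, chr14:52707178-52728590, plus strand) stood apart from the ring, with 6447 and 5594 normalized counts. The difference of -0.20 (95% interval -0.26 to -0.15) stood at percentile 29.4 of all genes, and no other ATPase gene had an interval below 0. The chaperones of the base, PSMD5, PSMD9 and PSMD10, had low counts, and all 3 intervals included 0. PSMD5 had 115 and 101 normalized counts, the fewest of the compared genes (-0.18, 95% interval -0.59 to 0.21). PSMD9 had 570 and 592 (0.055) and PSMD10 had 1716 and 1825 (0.089).

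Of the activator genes, PSME1, PSME2, PSME3 and PSMF1 were lower in the FFA + 9-cis-RA library. PSME1 and PSME2 encode the alternating subunits of one ring, the interferon-inducible activator also called PA28, and lie on chromosome 14 with 4394 bases between them on opposite strands. PSME2 (ENSG00000100911, chr14:24143362-24147570, minus strand) had 10023 and 8563 normalized counts. Its log2 fold change of -0.23 (95% interval -0.27 to -0.19) was the lowest of the 43 genes, at percentile 27.6 of all genes. PSME1 (ENSG00000092010, chr14:24136163-24138967, plus strand) had 8973 and 8218 (-0.13, 95% interval -0.17 to -0.083). PSME3, the nuclear activator, had 11651 and 11007 (-0.082, 95% interval -0.12 to -0.044). PSME4, also known as PA200, had 8825 and 8595, with an interval that included 0 (-0.038, 95% interval -0.081 to 0.0049), and turned positive with total-count scaling. PSMF1, the inhibitor, had 12909 and 11973 (-0.11, 95% interval -0.14 to -0.073). PSME3 had an interval that included 0 with total-count scaling, and PSME1 with the length trend removed. PSME2 alone lay below the lower quartile of protein-coding genes of like counts (-0.15), and none lay below that of all genes (-0.26).

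The assembly chaperones of the core act as pairs, PSMG1 with PSMG2 and PSMG3 with PSMG4. PSMG1 had 4585 and 4119 normalized counts (-0.15, 95% interval -0.22 to -0.093). PSMG3 had 3037 and 2801 (-0.12, 95% interval -0.19 to -0.042). PSMG4 had 1609 and 1478 (-0.12, 95% interval -0.22 to -0.019). All 3 were lower, but the interval of PSMG3 included 0 with total-count scaling or the length or GC trend removed, and that of PSMG4 with TMM or total-count scaling or the GC trend removed. PSMG2, with 942 and 900, had an interval that included 0 (-0.066, 95% interval -0.20 to 0.067).

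Levels between genes were compared per length, as TPM, in which each count is divided by the exonic length in the count tables and the values are scaled to the same total in each library. In the FFA library PSMB6 (332 TPM), PSMB4 (324 TPM) and PSMA7 (317 TPM) were the highest. PSMD5 (1.26 TPM), PSMD9 (3.12 TPM) and PSMA2 (4.64 TPM) were the lowest of the compared genes. Subunits that stand once in each ring had unequal transcript levels. The highest alpha gene was 68.3 times the lowest (PSMA7 against PSMA2), while the beta genes spanned 3.28 times (PSMB6 against PSMB2), the ATPases 5.27 times (PSMC4 against PSMC1) and the lid 4.77 times (PSMD7 against PSMD6). The alpha span rests partly on bases that other genes overlap. Such overlap, against the median coding transcript, was 72.0% for PSMA2, 103% for PSMA6, 54.1% for PSMA1 and 56.7% for PSMD9, whose levels are understated. With the median transcript length the alpha span was 26.5 times. That length also moved PSMG4 from 7.43 to 58.7 TPM and put PSMB4 (421 TPM) first in the beta ring, so the order of neighbors depends on the length used.

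**Figure D2:**
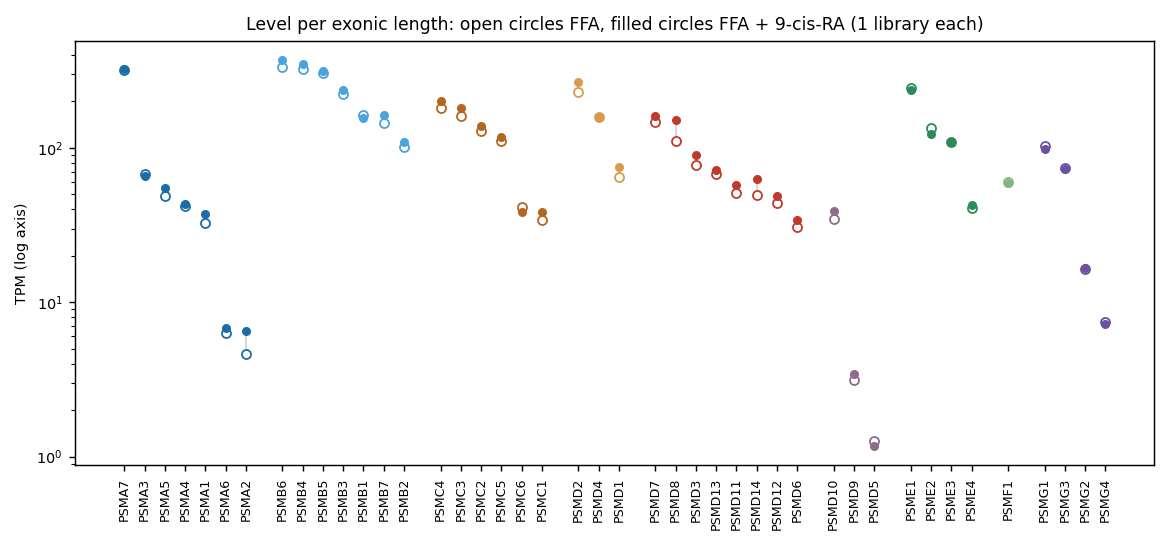
Level of each compared gene per exonic length, in TPM on a log axis, with open circles for the FFA library and filled circles for the FFA + 9-cis-RA library, colored by role as in the plot of log2 fold changes and sorted by level within a role. The levels span from 1.26 TPM for PSMD5 to 332 TPM for PSMB6 in the FFA library, and for most genes the circles of both libraries lie close together.

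Together the 45 genes took 0.500% of all counts with FFA and 0.522% with FFA + 9-cis-RA. Their summed level was 4626 TPM and 4940.2 TPM, a log2 difference of 0.095, while the sum of normalized counts differed by 0.013. The TPM scale lies 0.090 above normalized counts for every gene, so small differences change sign between the scales. The core sum was 2114 and 2239 TPM (0.083), but its normalized counts differed by -0.0067 (95% interval -0.020 to 0.0064). The regulatory sum was higher on both scales, with 1724 and 1936 TPM (0.17) and a difference of 0.078 in normalized counts. The activator sum was lower on both, with 587 and 570.3 TPM (-0.042) and -0.12 in normalized counts, as was the assembly sum, with 200.4 and 194.7 TPM (-0.042) and -0.13.

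The immunosubunits, which replace the constitutive catalytic subunits, had values below 0, and PSMB8 and PSMB10 differed more than any of the 43 genes. Of the 3 immunosubunit intervals, 2 lay below 0 (66.7%, beside 32.7% of protein-coding genes of like counts). The lower quartile of those background genes was -0.15. PSMB8, the counterpart of PSMB5, had 2778 and 1832 normalized counts (-0.60, 95% interval -0.69 to -0.51). PSMB10, the counterpart of PSMB7, had 275 and 158 (-0.80, 95% interval -1.10 to -0.52). PSMB9, the counterpart of PSMB6, had 177 and 153, with an interval that included 0 (-0.21, 95% interval -0.53 to 0.11). Constitutive subunits held most of the transcript level at each site in both libraries. Per length, PSMB8 made up 11.1% of PSMB8 and PSMB5 together with FFA (exact 95% interval 10.7 to 11.6) and 7.91% with FFA + 9-cis-RA (7.55 to 8.29). PSMB10 made up 5.33% of PSMB10 and PSMB7 (4.73 to 5.97) and 2.94% (2.50 to 3.43). PSMB9 made up 0.764% of PSMB9 and PSMB6 (0.656 to 0.884) and 0.632% (0.535 to 0.741). The log2 ratio of immunosubunit to constitutive subunit differed by -0.54 at the PSMB5 position (95% interval -0.64 to -0.45) and by -0.89 at the PSMB7 position (95% interval -1.19 to -0.60). At the PSMB6 position it differed by -0.28, within counting error (95% interval -0.60 to 0.047). Reads in 39.4% of the exonic bases of PSMB10 were not counted because another gene overlaps them, and leaving out those bases gave shares of 8.49% and 4.75%. The size of a share depends on the length used more than on counting error: with transcript length PSMB8 made up 20.2% and 14.8%, PSMB9 1.91% and 1.58%, and PSMB10 3.95% and 2.17%.

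**Figure D3:**
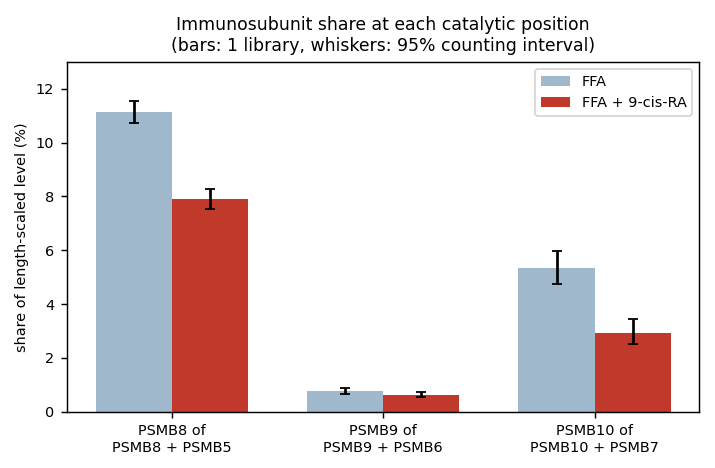
Share of the immunosubunit in the length-scaled level of each catalytic pair, in percent, for the FFA and the FFA + 9-cis-RA library, with whiskers for the exact 95% counting interval (1 library per group). The share of PSMB8 goes from 11.1% to 7.91% and that of PSMB10 from 5.33% to 2.94%, while the intervals of PSMB9 overlap, and with transcript length the PSMB8 bars would stand at 20.2% and 14.8%.

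Genes that work with the proteasome were described by lists. Of 13 other proteasome parts and cofactors, 10 were higher and 3 lower, with a median of 0.049. Among them 6 intervals lay above 0 (46.2%, beside 33.5% of protein-coding genes of like counts) and 2 below (15.4%, beside 32.7%). UBLCP1 was the highest of this list, with 1841 and 2193 normalized counts (0.25, 95% interval 0.16 to 0.34). ADRM1, a ubiquitin receptor of the base, had 17980.0 and 20386 normalized counts (0.18, 95% interval 0.15 to 0.21). POMP, the core maturation factor, had 1853 and 1898, with an interval that included 0 (0.035), and SEM1 was lower, as given with the lid. Of 15 ubiquitin and shuttle factor genes, 10 were higher (66.7%, beside 51.6% of protein-coding genes of like counts) and 5 lower, with a median of 0.069. Here 7 intervals lay above 0 (46.7%, beside 33.5%) and 5 below (33.3%, beside 32.7%). The VCP cofactor gene NPLOC4 was higher (0.31, 95% interval 0.27 to 0.36), while RPS27A, which encodes ubiquitin fused to a ribosomal protein, was lower (-0.19, 95% interval -0.21 to -0.18).

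The 9 genes of the NFE2L1 pathway had a median of 0.041, 6 higher and 3 lower. Of their intervals, 4 lay above 0 (44.4%, beside 33.5% of protein-coding genes of like counts) and 2 below (22.2%, beside 32.7%). NFE2L1 itself had 6308 and 7711 normalized counts (0.29, 95% interval 0.24 to 0.34). DDI2, the protease that releases NFE2L1, had 5446 and 5604, with an interval that included 0 (0.041). NGLY1, which removes its sugar chains, was at -0.085 with an interval that included 0, and VCP, which extracts it from the membrane, was at 0.14. The small MAF genes MAFF (-0.20, 95% interval -0.33 to -0.065) and MAFG (-0.075, 95% interval -0.13 to -0.023) were lower. MAFK had an interval that included 0 (0.020). DDI2 and VCP stand in both of these lists.

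Other complexes of many subunits gave a comparison of like kind. The 8 genes of the CCT chaperonin had a median of 0.011, from -0.085 to 0.091, and the 10 genes of the COP9 signalosome, a relative of the lid, had a median of 0.0019, from -0.19 to 0.096, whose sign changed with protein-coding genes alone and with the expression or GC trend removed. The 13 eIF3 genes, whose complex is also related to the lid, had a median of -0.094, from -0.40 to 0.092, with 10 lower. Of their intervals, 9 lay below 0 (69.2%, beside 32.7% of protein-coding genes of like counts). All 8 CCT genes and all 10 COP9 genes lay within 0.25 of 0, as did 11 of the 13 eIF3 genes. Values close to 0 were therefore not particular to the proteasome genes. The plot of the lists sets the groups beside one another.

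**Figure D4:**
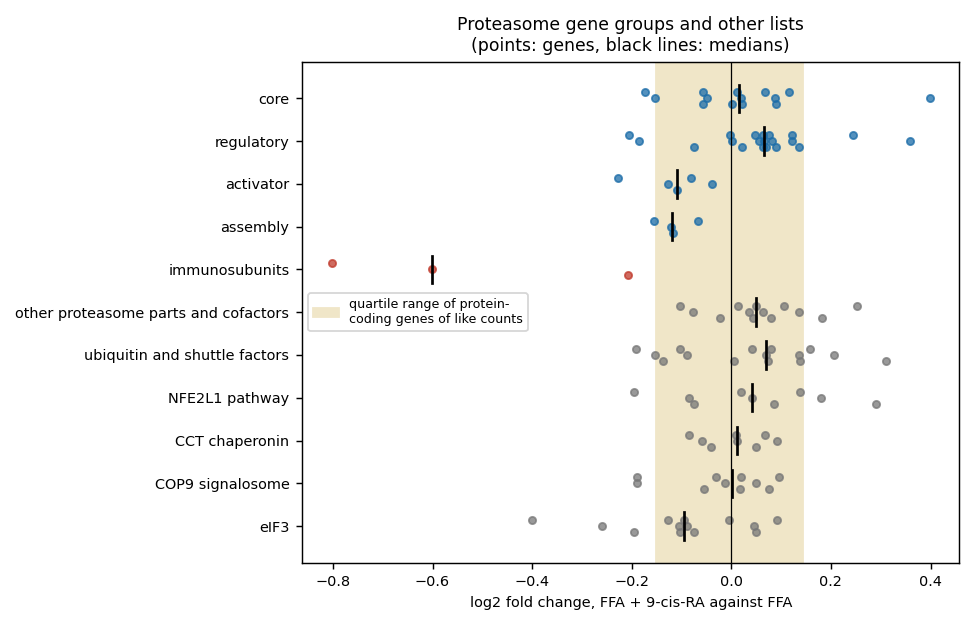
Log2 fold change of each gene, FFA + 9-cis-RA against FFA, for the 4 proteasome groups (blue), the immunosubunits (red) and other lists (gray), with black lines for medians and a band between the quartiles of the 11171 protein-coding genes of like counts (-0.15 to 0.14). Most proteasome genes lie in or near the band, the activator and assembly points lie left of 0, and PSMB8 and PSMB10 lie far to the left.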

How the data were processed

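Gene expression in HepG2 cells was taken from 2 libraries, 1 for each treatment. The authors deposited unnormalized counts of read pairs for each gene, from featureCounts version 2.0.1 on the reverse strand (strand setting 2). Pairs with an unmapped end, multi-mapping pairs and pairs that hit more than 1 gene were left out, which lowers the counts of overlapping and near-identical genes. The labels name GRCh38, and the aligner and annotation release are not given in the sources used here. Members and lists were chosen with earlier results of these data known.

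Symbols (60295 of 60623 entries), GENCODE release 29 biotypes (58516) and RefSeq promoters were joined by identifier or symbol. Counts were divided by DESeq2 1.42.0 size factors (TMM from edgeR 4.0.16, R 4.3.3). Log2 fold changes used a pseudocount of 1 and a minimum of 10 counts summed over the libraries. TPM was computed from the counts and the deposited exonic length. Intervals are exact (Clopper-Pearson, 95%), and those between group sums are normal approximations. Python 3.11.15, numpy 2.4.6, pandas 2.3.3, scipy 1.17.1, statsmodels 0.14.6 and matplotlib 3.10.9 were used. All 45 members were described, and the genes of other lists that are named were picked with their values in view. Some genes of these lists are not reported here by name. Scripts were tested on simulated data. Alternatives were scaling by TMM or by total counts, a pseudocount of 0.1 or 5, no count minimum or 50, protein-coding genes only, and loess trends (span 0.3) on expression, length and GC content removed. Transcript length, overlap-free length, the 0.25 limit and the middle count range were added after the data were seen. No model could be fitted with 1 library per group.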

Additional observations from a re-analysis of the deposited data

How the results depend on the processing

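With 1 library per group, no spread between replicates can be measured, and the intervals cover counting error alone. No paired analysis was possible because each group has 1 library. Scaling and the length and GC trends all matter here, since most members lie near 0. The median of all genes was -0.020 with the main scaling and 0.029 with total counts. With total-count scaling the median was 0.068 for all members, 0.064 for core and -0.059 for activator genes, and 7 members had an interval below 0. With the GC trend removed, 8 members had one. With the length trend removed the core median was 0.065, beside 0.064 for regulatory genes. Without a count minimum, 1 member was above 1 and 1 below -1, PSMA8 and PSMB11. Among members whose interval excluded 0, the values that changed sign were 0.049 for PSMB5 and 0.049 for PSMA7 with the length trend removed and 0.00093 for PSMA7 with the GC trend removed. Members whose interval included 0 also changed sign, namely PSME4 (0.011 with total counts), PSMG2 (0.0014 with the length trend removed), PSMC5, PSMA6, PSMB3 and PSMD13. Of the 31 intervals that excluded 0, 7 no longer did on the same side with total counts and 4 with TMM. With the GC and length trends removed 8 and 7 no longer did, with the expression trend removed 3, and with protein-coding genes only 2. The pseudocounts and count minimums could change none, so they are no check of these intervals. The exact intervals use no pseudocount, and all of these genes passed every count minimum.

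Sums of normalized counts in place of TPM gave 0.013 for all members, -0.0067 for core (reversed), 0.078 for regulatory, -0.12 for activator and -0.13 for assembly genes. With transcript length they were 0.076, 0.066, 0.15 and -0.075 for all members, core, regulatory and activator genes. As shares of counts, PSMB8 made up 22.0% and 16.2%, and PSMB9 1.74% and 1.45%, in the FFA and the FFA + 9-cis-RA library. With transcript length the shares were 20.2% and 14.8% for PSMB8, 1.91% and 1.58% for PSMB9, and 3.95% and 2.17% for PSMB10, and without overlapped bases they were 8.49% and 4.75% for PSMB10. In all of these the immunosubunit share was lower in the FFA + 9-cis-RA library. Both libraries are divided by the same lengths, so the length used cannot change that direction and is no check of it. For PSMB9 the difference was within counting error. The cause of these shifts was not tested.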

Other observations

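The annotation also lists 44 proteasome pseudogenes, of which 25 had no count and 11 had at least 10 counts over both libraries. They took 1295 counts with FFA and 1116 with FFA + 9-cis-RA. PSMA6P1 had 482 and 443 counts, which was 55.9% and 51.9% of the counts of PSMA6, and differed by -0.094 on the log2 scale (95% interval -0.28 to 0.095). PSMC2P1 had 248 and 210 counts and PSMC1P1 had 172 and 154, a few percent of the counts of PSMC2 and PSMC1. Reads that map equally well to a gene and its pseudogene were not counted for either, so the counts of PSMA6 and its pseudogene are uncertain.

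Of 7 antisense or divergent transcripts named after proteasome genes, 5 were compared. PSMA3-AS1 had 2242 and 2095 counts, 50.5% and 53.5% of the counts of PSMA3, and differed by -0.070 on the log2 scale (95% interval -0.16 to 0.016). PSMG3-AS1 had 148 and 197 counts and was higher (0.44, 95% interval 0.13 to 0.76), while PSMG3 was lower. PSMB8-AS1 had 126 and 70 counts and was lower (-0.81, 95% interval -1.26 to -0.39), as was PSMB8. These libraries were counted by strand.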
